A study of Mus musculus with 4 samples.

Results

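The mitochondrial carrier family Slc25 was examined in the gastrocnemius, a calf muscle, of mice with raised levels of the nuclear receptor PPARα. Carriers were all genes of the array annotation with a symbol Slc25a and a number, other than Slc25a4, Slc25a5 and Slc25a20, each measured by its brightest probe set that has a single gene symbol. The rule found 30 carriers among 12393 genes with such a probe set. The transgenic group (MCK-PPARa, n = 2 arrays) carries PPARα under the control of muscle creatine kinase sequences, per its name, and the labels call its overexpression muscle-specific. The controls were non-transgenic littermates (NTG, n = 2 arrays). The sources used here do not give strain, age, sex, treatment or the number of transgenic lines. The comparison asks whether transcripts of the transporters that load the mitochondrial matrix differ when PPARα is raised in muscle.

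Mitochondrial carriers are small proteins of the inner mitochondrial membrane, built from repeats of a common fold, that exchange metabolites, nucleotides and cofactors between the cytosol and the matrix. They are made in the cytosol and inserted by a dedicated import pathway. In muscle they feed the respiratory chain with phosphate and ADP, run the malate-aspartate shuttle that carries reducing power inward, and supply the matrix with coenzyme A, NAD and iron. PPARα binds DNA with its partner RXR and, once a fatty acid or drug occupies it, turns up genes for burning fat.

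No carrier passed the test for a change in MCK-PPARa muscle. Of the 25 carriers bright enough to be tested, 0 passed limma's test adjusted over all 8400 genes (smallest adjusted p = 0.79), where 0.0595% of all genes passed. With the replicate number of the labels as a block, 0 of 25 passed (smallest limma adjusted p = 0.15), where 2.33% of all genes did. At an unadjusted limma p under 0.05 without the block there was 1 carrier, the pyrimidine nucleotide carrier Slc25a33, against 5.85% of all genes. The widest spread among the carriers was larger between replicate numbers than between genotypes. Slc25a25, a calcium-regulated carrier of ATP-magnesium and phosphate, had the highest mean replicate 2 minus replicate 1 difference of all 8400 genes tested.

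A change is given on the scale of log2(signal + 64.2), as the MCK-PPARa mean less the NTG mean, with a standard error (SE, n = 2 per group). The scale understates the change of dim genes. The labels do not tie arrays to separate animals beyond a replicate number, so p-values rest on the spread between these samples. For each gene, limma also draws the SE and p from the spread of other genes. Without the block, 2 of its 7.86 degrees of freedom come from the gene itself. An exact permutation test of 2 against 2 arrays cannot give a two-sided p below 0.333. In whole muscle, fewer cells of a type and less RNA per cell cannot be told apart. A signal depends on its probes, so levels are compared between arrays and not between carriers.

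The targeted gene followed the labels. Ppara had signals of 633 and 2674 in NTG against 7969 and 15226 in MCK-PPARa, with limma adjusted p = 0.21, and 0.0012 with the replicate block. The 12 skeletal muscle fibre markers, among them Ckm, Acta1 and Myh4, were all measured, and none passed the test. Arrays of different replicate number stood apart. A 5′ control probe set for 18S rRNA read 2202 (NTG) and 2313 (MCK-PPARa) for number 1 but 28.9 and 44.7 for number 2. Liver transcripts stood apart with it too. Of 16 hepatocyte markers, listed after their values were seen, 14 were lower on the number 2 array in both genotypes, 8 of them by at least 1 on the log2 scale, while Tat was higher on both and Cps1 went both ways. Their summed signal was 54048 and 28448.5 on the NTG and MCK-PPARa arrays numbered 1 against 5874 and 9115 on those numbered 2, and Alb, the albumin gene, read 19525 and 9394 against 666 and 1148. The labels do not say what the number marks.

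Promoter sequences were available from RefSeq (GRCm38.p6) for 23 of the 30 carriers, and 2 are shown because they hold the same element in carriers that were higher on both replicate 2 arrays. The windows are the 250 bases before an annotated transcription start, read 5′ to 3′ on the gene's strand. The capitals mark TGACGTCA, the full cyclic AMP response element, a palindrome that reads alike on both strands and the only motif searched. Slc25a25 has 3 annotated starts, and the window with the match is chr2:32424067-32424316 on the minus strand. The window of Slc25a36, a pyrimidine nucleotide carrier, is chr9:97111042-97111291 on the minus strand.
Slc25a25: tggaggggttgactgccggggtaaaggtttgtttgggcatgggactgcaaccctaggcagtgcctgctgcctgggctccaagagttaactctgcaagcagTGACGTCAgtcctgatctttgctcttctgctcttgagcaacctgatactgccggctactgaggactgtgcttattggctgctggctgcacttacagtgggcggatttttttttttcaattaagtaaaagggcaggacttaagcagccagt
Slc25a36: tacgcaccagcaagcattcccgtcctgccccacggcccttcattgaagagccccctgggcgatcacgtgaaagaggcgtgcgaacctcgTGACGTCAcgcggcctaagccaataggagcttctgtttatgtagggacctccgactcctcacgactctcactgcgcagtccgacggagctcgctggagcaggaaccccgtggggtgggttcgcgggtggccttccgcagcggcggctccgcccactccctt

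The element lies 150 to 143 bases before the start in Slc25a25 and 161 to 154 bases before it in Slc25a36. These are 2 of 23 carriers with a window, and 1.77% of 27025 genes in the table have an exact match in a window of the same length (1.55% of 32851 windows). Also higher on the replicate 2 array in both genotypes were Slc25a11, Slc25a30, Slc25a42, Slc25a45 and Slc25a47. The same held, below the filter, for Slc25a13, Slc25a17 and Slc25a48. The windows of all these have no match. Slc25a37 and Slc25a51 were higher too and have no window. The element was chosen for search after the values of these carriers were seen. A second Slc25a36 probe set was not higher on both replicate 2 arrays, with differences of 0.28 in NTG and -0.84 in MCK-PPARa. A match is a description of letters and shows no binding.

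As a family the carriers stood where all genes stood in their median change over all arrays. The median change of the 30 carriers was 0.09, and that of all 12393 genes was 0.09. Of the carriers 17 had a change above 0 and 13 below, and 58.5% of all genes lay above 0. The groups did not overlap for 10 of the 30 carriers, 6 higher and 4 lower in MCK-PPARa, where all genes gave 34.1% (21.8% higher and 12.3% lower). The carriers tested ran from -0.78 to 0.41, and 21 of 25 had an absolute change under 0.5. An absolute change of at least 1 was seen in 0 of the 25 tested carriers and in 4.5% of all genes tested. These 25 passed a filter on the mean over all arrays, and the other 5 are described with their classes. Within replicate number 1 the median of the 30 carriers was 0.0070, and within number 2 it was -0.0040. Over the genes that passed the filter these medians were higher, at 0.0445 and 0.0621.

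The arrays bound the changes only loosely. The 95% interval from limma lay inside -1 to 1, a doubling or halving, for 10 of the 25 tested carriers. For 6 more it reached 1 or above, for 7 it reached -1 or below, and for 2, Slc25a25 and Slc25a42, it reached both. With the replicate block it lay inside -1 to 1 for 19 of 25. For the others, a p that misses the threshold leaves room for a doubling or halving.

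**Figure D1:**
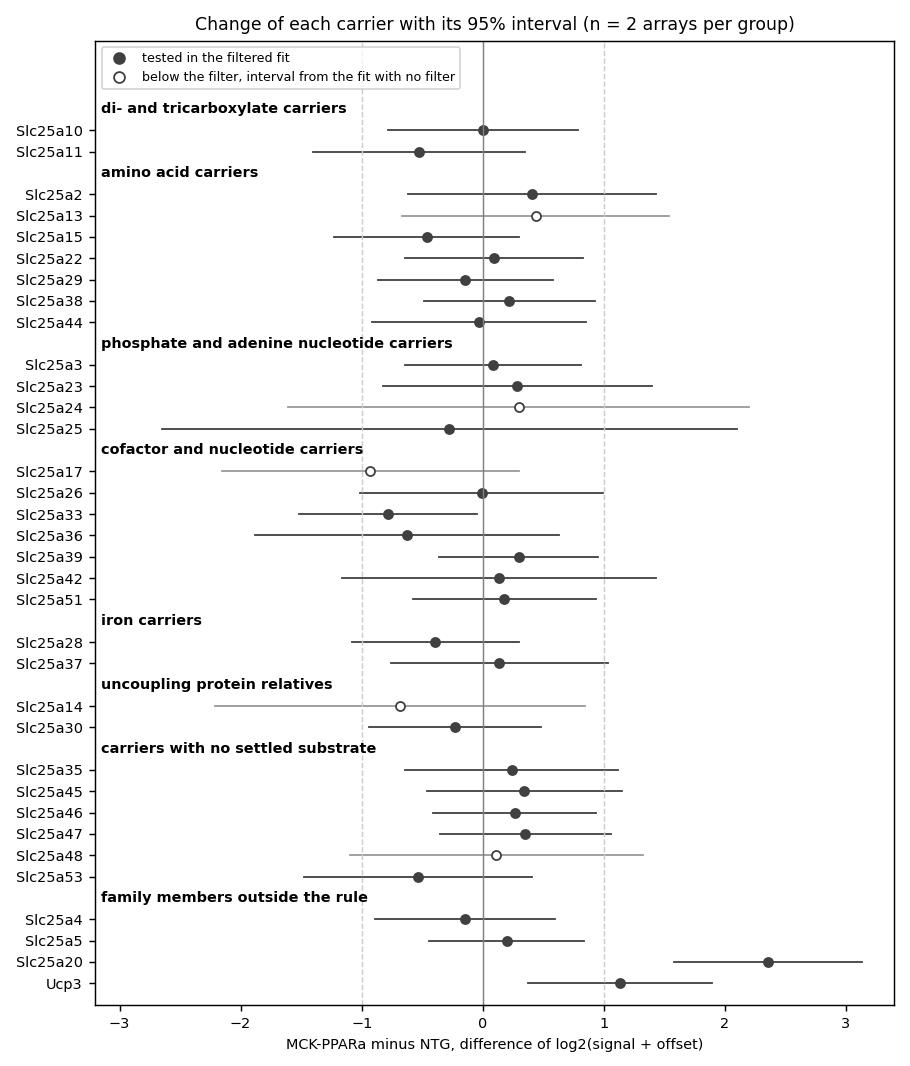
The change of each carrier on the log2 scale (horizontal axis, MCK-PPARa minus NTG) is plotted by substrate class with its 95% interval from limma, n = 2 arrays per group. Filled points are the 25 tested carriers, open points the 5 below the filter, and dashed lines mark -1 and 1; all 30 carriers sit between -0.93 and 0.44, and Slc25a20 at 2.36.

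Among di- and tricarboxylate carriers the larger difference was that of Slc25a11, the oxoglutarate-malate carrier of the malate-aspartate shuttle. Its signal was 15249 and 25245 in NTG against 10715 and 17256 in MCK-PPARa, replicate 1 first in each case. Each transgenic array was below the control of its own number, by 0.51 for number 1 and 0.55 for number 2, while the groups overlapped. The change was -0.53 ± 0.38 (SE) with limma adjusted p = 0.96, and 0.23 with the replicate block. Its interval ran from -1.40 to 0.35, and with the block from -0.95 to -0.11 (limma unadjusted p = 0.019). Slc25a10, which exchanges malate and succinate for phosphate, had 1116 and 1251 in NTG against 1427 and 980 in MCK-PPARa. Its change was 0.00 ± 0.34 (SE), with an interval from -0.79 to 0.79.

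Phosphate and adenine nucleotide carriers ranged from an even level on all arrays to a wide spread. Slc25a3, which brings phosphate into the matrix for ATP synthesis, had signals of 73402 and 67872 in NTG against 77841 and 72000.5 in MCK-PPARa. The groups overlapped, and the change was 0.08 ± 0.31 (SE), with 0.08 within each replicate number and an interval from -0.64 to 0.81. The direction turned under other scalings, to -0.02 under quantile normalization and -0.02 under median centring. Slc25a23, a calcium-regulated ATP-magnesium and phosphate carrier, had 482 and 425 in NTG against 398 and 793 in MCK-PPARa (0.28 ± 0.48, SE). Its relative Slc25a24 was below the filter, with 59.4 and 288 in NTG against 516 and 48.8 in MCK-PPARa. The replicate 1 arrays differed by 2.23 and the replicate 2 arrays by -1.64, so the 0.30 between the groups averages opposite differences.

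Slc25a25, a further calcium-regulated carrier of this kind, differed more between replicate numbers than between genotypes. Its signal was 1729 on the NTG and 1586 on the MCK-PPARa array numbered 1, and 13484 and 9986 on the arrays numbered 2. The number 2 arrays thus read 7.8 times the number 1 array in NTG and 6.3 times in MCK-PPARa. On the log2 scale these differences were 2.92 and 2.61, and their mean of 2.76 ranked 1 among the 8400 genes tested. Between genotypes the change was -0.28 ± 1.03 (SE), with an interval from -2.65 to 2.10, and from -0.74 to 0.19 with the replicate block. Without NTG replicate 1, the 13484 of NTG replicate 2 faced both transgenic arrays alone and the change became -1.73 (limma adjusted p = 0.025). That fit sets a number 2 control against transgenic arrays of both numbers.

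Slc25a42 and Slc25a36 showed the same kind of split. Slc25a42, the carrier of coenzyme A in exchange for adenine nucleotides, had 969 and 3159 in NTG against 1378 and 2716 in MCK-PPARa. Both number 2 arrays were above both number 1 arrays, with a mean difference of 1.295 that ranked 73 of 8400. Slc25a36 had 846 and 2574 in NTG against 684 and 1282 in MCK-PPARa, again with both number 2 arrays above both number 1 arrays (mean difference 1.19, rank 117). Their changes between genotypes were 0.13 ± 0.56 (SE) and -0.63 ± 0.54 (SE). The second Slc25a36 probe set did not show the split, with 479 and 593 in NTG against 722 and 376 in MCK-PPARa.

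A difference of at least 0.5 above replicate 1 in both genotypes was seen in 5 of the 25 tested carriers, against 9.38% of all genes, and none of the 25 lay at least 0.5 below in both (8.15% of all genes). Besides Slc25a25, Slc25a42 and Slc25a36 these were Slc25a11 and Slc25a37, mitoferrin-1, which imports iron for haem synthesis. At a difference of at least 1 in both genotypes there was 1 carrier, Slc25a25, against 1.05% of all genes, and 0 carriers lay at least 1 below in both (1.62%). These carriers were picked out after their values were seen, and no test was made of the replicate number. The 18S and liver marker signals given above moved with the number too, and their part in the carrier values was not tested. Slc25a47, known chiefly from liver, had a replicate 2 minus replicate 1 difference of 0.11 in NTG and 0.09 in MCK-PPARa. Slc25a15, the ornithine carrier of the urea cycle, had -0.18 and -0.33.

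**Figure D2:**
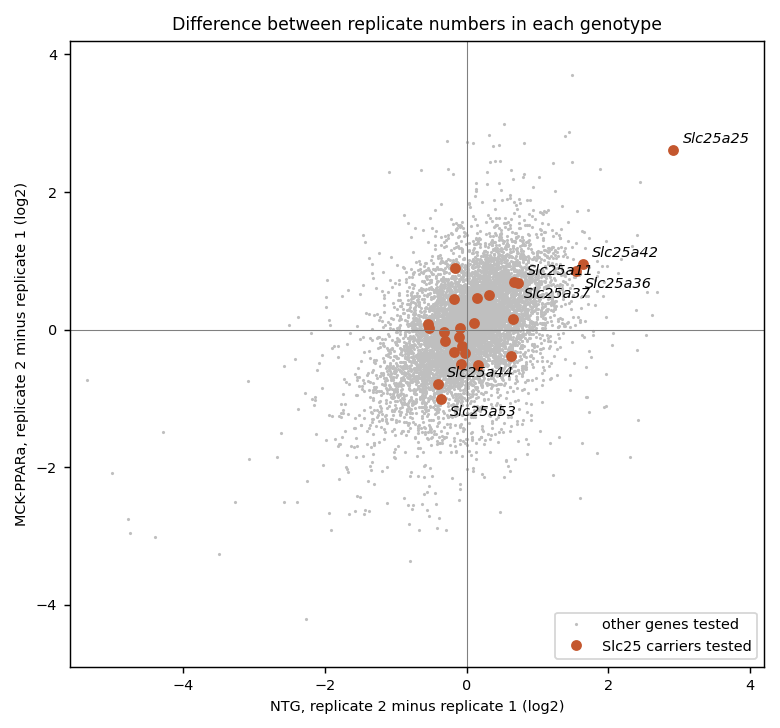
Each point is a gene tested, with its replicate 2 minus replicate 1 difference (log2) in NTG on the horizontal axis and in MCK-PPARa on the vertical axis; carriers are the large points. Slc25a25 lies alone at the upper right with 2.92 and 2.61, Slc25a42 and Slc25a36 follow at 1.64 and 0.95 and at 1.54 and 0.85, and the other carriers sit in the cloud.

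Cofactor and nucleotide carriers held the single carrier with an unadjusted p under 0.05 in the fit without the block. Slc25a33, which carries pyrimidine nucleotides into the matrix, had 2878 and 2717 in NTG against 1912 and 1334 in MCK-PPARa muscle. Both transgenic arrays lay below both controls, by 0.57 between the arrays numbered 1 and 0.99 between those numbered 2. The change was -0.78 ± 0.32 (SE), a 1.72-fold lower level, with an interval from -1.52 to -0.05. It did not pass adjusted over all genes (limma adjusted p = 0.79, and 0.15 with the replicate block).

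The others of this class lay on both sides of 0. Slc25a39, which brings glutathione into mitochondria, had 14494 and 13572 in NTG against 17070 and 17381 in MCK-PPARa. Both transgenic arrays were higher, and the change of 0.30 ± 0.28 (SE) did not pass (limma adjusted p = 0.97). Its other probe sets went both ways, at -0.14 with overlapping groups and at 0.60 without overlap. The NAD carrier Slc25a51 had a change of 0.18 ± 0.33 (SE) and the S-adenosylmethionine carrier Slc25a26 one of -0.01 ± 0.43 (SE). The other Slc25a51 probe sets were at -0.08 and, below the filter, -0.69, both with overlapping groups. Slc25a17, the peroxisomal carrier of coenzyme A and other cofactors, was below the filter with 376 and 394 in NTG against 112 and 252.5 in MCK-PPARa. Its change of -0.93 was the lowest of the 30. The second Slc25a17 probe set went the other way, with 148 and 95.6 against 707 and 214 (1.33). That probe set would stand for the gene if brightness were the mean linear signal, so the direction is not settled by the array.

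**Figure D3:**
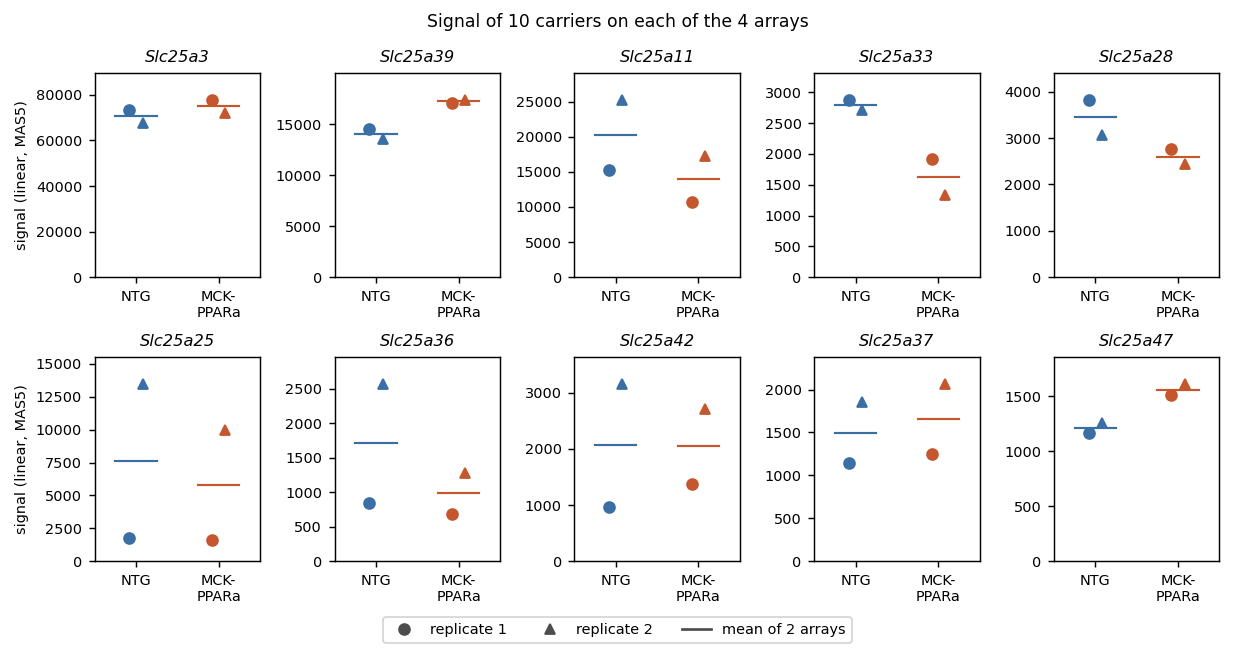
Deposited signal (vertical axes, linear, each starting at 0) of 10 carriers on the NTG and MCK-PPARa arrays; circles are replicate 1, triangles replicate 2 and lines the mean of 2 arrays. Slc25a33 sits lower on both transgenic arrays (1912 and 1334 against 2878 and 2717), while in Slc25a25, Slc25a36, Slc25a42 and Slc25a37 the triangles lie above the circles in both genotypes.

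Amino acid carriers held no change past the test. Slc25a15, the ornithine carrier of the urea cycle, had 1418 and 1243 in NTG against 1070 and 836 in MCK-PPARa. Both transgenic arrays lay below both controls, and the change of -0.46 ± 0.33 (SE) did not pass (limma adjusted p = 0.96). Its second probe set pointed upward, with 484 and 740 against 704 and 861 (0.34). Slc25a2, a second ornithine carrier, had 454 and 352 in NTG against 559 and 544 in MCK-PPARa (0.41 ± 0.44, SE). Slc25a38, which imports glycine for haem synthesis, had a change of 0.22 ± 0.31 (SE), the glutamate carrier Slc25a22 0.09 ± 0.32, the branched-chain amino acid carrier Slc25a44 -0.03 ± 0.38 and the basic amino acid carrier Slc25a29 -0.15 ± 0.31. The other Slc25a44 probe sets had changes of -0.62, without overlap of the groups, and -0.22, with overlap. The aspartate-glutamate carrier Slc25a13 was below the filter, at 63.9 and 116 in NTG against 130 and 154 in MCK-PPARa (0.44). The Slc25a13 signals lie near the offset of 64.2, so its fold is not given. The median of the 7 amino acid carriers was 0.09.

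Both iron carriers, the mitoferrins, were measured. Slc25a28, mitoferrin-2, had 3824 and 3066 in NTG against 2755 and 2445 in MCK-PPARa, so both transgenic arrays lay below both controls. The change was -0.39 ± 0.30 (SE) and did not pass (limma adjusted p = 0.96, and 0.43 with the replicate block). Slc25a37, mitoferrin-1, had 1140 and 1856 in NTG against 1248 and 2066 in MCK-PPARa (0.14 ± 0.39, SE). It is rich in the red cell lineage. Of 7 red cell markers listed, 4 were measured, with a summed signal of 3375 to 3955 in NTG against 4247 to 4911 in MCK-PPARa. Most of that sum was Alas2, with 2893 and 2589 in NTG against 3590 and 3531 in MCK-PPARa. The groups overlapped for Hba-a1 (0.16), Slc4a1 (-0.24) and Epb42 (0.46). Of these markers 2 were tested, and none passed. The part of those cells in the mitoferrin values was not tested.

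Of the relatives of the uncoupling proteins, Slc25a30 had 3015 and 3339 in NTG against 2292 and 3172.5 in MCK-PPARa, a change of -0.23 ± 0.31 (SE). Its 5 probe sets were all below 0, from -0.79 to -0.16. Slc25a14 was below the filter. It read 513 in NTG replicate 1 and 96.8, 101 and 154 on the other arrays, so its change of -0.68 rests on 1 array.

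Carriers with no settled substrate had 5 of 6 changes above 0 and a median of 0.25, against 58.5% of all genes above 0. Slc25a46, an outer-membrane protein of mitochondrial fission and fusion, had 2877 and 2739 in NTG against 3672 and 3113 in MCK-PPARa. Both transgenic arrays were higher, and the change of 0.26 ± 0.29 (SE) did not pass (limma adjusted p = 0.97). Slc25a47 had signals of 1163 and 1257 in NTG against 1510 and 1613 in MCK-PPARa muscle. Both transgenic arrays lay above both controls, by 0.35 ± 0.31 (SE), and the change did not pass (limma adjusted p = 0.97). Slc25a45 had 912 and 1154 against 1096 and 1586, with overlapping groups and a change of 0.34 ± 0.35 (SE). Slc25a53 differed most, with 1867 and 1444 in NTG against 1608 and 764 in MCK-PPARa, overlapping groups and a change of -0.54 ± 0.41 (SE). Slc25a35 had a change of 0.24 ± 0.38 (SE). Slc25a48 was below the filter, at 68.1 to 200 on the 4 arrays (0.11).

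By class, the medians over all carriers of a class were -0.26 for 2 di- and tricarboxylate carriers, 0.18 for 4 phosphate and adenine nucleotide carriers and -0.01 for 7 cofactor and nucleotide carriers. They were -0.13 for 2 iron carriers and -0.46 for 2 uncoupling protein relatives. No class held a carrier that passed the test, with or without the block. Within replicate numbers the medians were 0.24 (number 1) and -0.51 (number 2) for cofactor and nucleotide carriers, and -0.02 and -0.17 for phosphate and adenine nucleotide carriers. The differences between classes were not tested.

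Which probe set stood for a gene mattered for 6 of the 12 carriers with several, whose probe sets differed in sign. The 6 were Slc25a15, Slc25a17, Slc25a29, Slc25a39, Slc25a48 and Slc25a51. Slc25a10 was not among them, but its second probe set read 216 and 198 in NTG against 884 and 594 in MCK-PPARa. This was a change of 1.54 ± 0.52 (SE), against 0.00 for the brighter one. Another Slc25a29 probe set went from 649 and 635 to 177 and 202 (-1.48 ± 0.51, SE), against -0.15 for the brightest. Neither passed when all 20380 probe sets were tested singly with no filter (limma adjusted p = 0.71 and 0.72), and none of the 51 probe sets of the carriers did. The remaining Slc25a29 probe sets had changes of -0.38, 0.50 and -0.28.

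**Figure D4:**
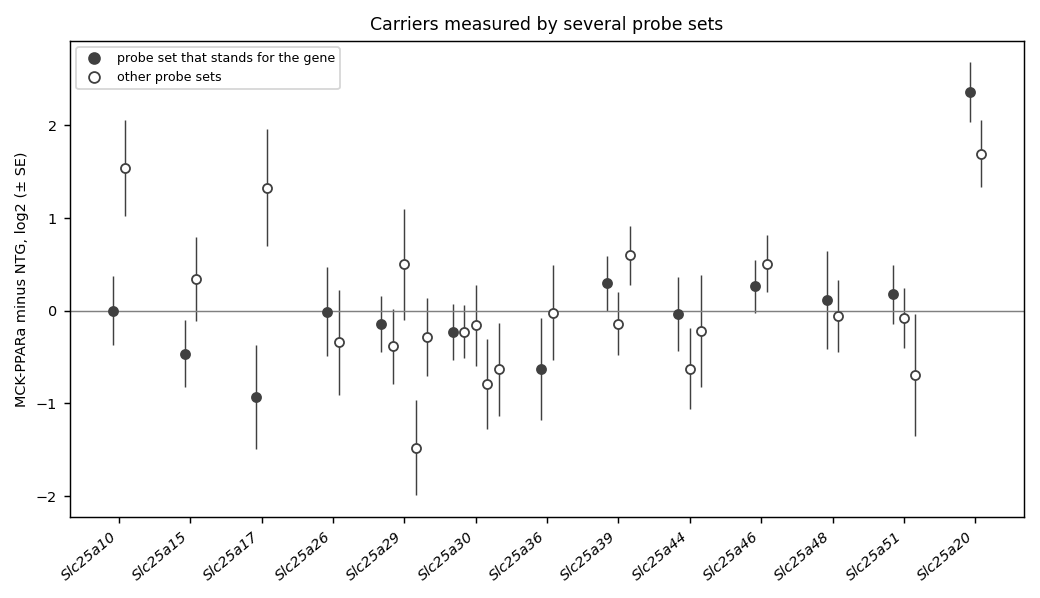
The change (vertical axis, MCK-PPARa minus NTG, log2, with its SE from the fit of all probe sets with no filter) is plotted for each probe set of the 12 carriers with several and of Slc25a20. Filled points stand for the gene; open points at 1.54 for Slc25a10, 1.33 for Slc25a17 and -1.48 for Slc25a29 lie far from the filled ones, while both Slc25a20 probe sets lie above 1.6.

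Of the family members outside the rule, the acylcarnitine carrier Slc25a20 was known to differ in these data before it was set beside the carriers. It had a change of 2.36 ± 0.34 (SE; limma adjusted p = 0.073, and 0.0022 with the replicate block). Its interval ran from 1.58 to 3.14, and for 24 of the 25 tested carriers the upper bound lay below that range. The exception was Slc25a25. Because Slc25a20 was known to be high, this count describes the intervals and is no test of the carriers. The uncoupling protein gene Ucp3 had 1.13 ± 0.33 (SE; limma adjusted p = 0.47, and 0.0501 with the block), and the adenine nucleotide translocator Slc25a5 0.20 ± 0.28. Of the 7 such members on the array, 6 were tested and 0 passed, and 1, Slc25a20, rose with the block. Among all genes the shares were 0.0595% without the block and 2.33% with it.

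Genes that build or feed the carriers were counted from lists. Beside these counts, 0.0595% of all genes passed without the block and 2.33% with it. In the carrier import pathway, 13 genes were tested and 0 passed with or without the block. The smallest p there belonged to the intermembrane chaperone gene Timm8b (-0.62 ± 0.32, SE), the import subunit Agk (0.47 ± 0.34) and Timm10b (0.31 ± 0.30). Of 4 genes for the pyruvate carrier and outer-membrane channels 0 passed, with Vdac2 at -0.48 ± 0.36 (SE), Mpc1 at 0.34 ± 0.31 and Vdac3 at -0.11 ± 0.30. Of 8 genes of the malate-aspartate shuttle and citrate use 0 passed. Mdh1, the cytosolic malate dehydrogenase, had 17695 and 18790 in NTG against 30935 and 27609 in MCK-PPARa (0.68 ± 0.29, SE; limma adjusted p = 0.85), while Got1 had -0.47 ± 0.38 and Me1 0.46 ± 0.37.

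Of 10 genes that make coenzyme A, FAD, NAD or S-adenosylmethionine, 0 passed without the block and 1 rose with it. Over all genes, 0.0595% passed without the block and 2.33% with it. The gene that rose was Pank1, a pantothenate kinase at the first step of coenzyme A synthesis. It had 837 and 907 in NTG against 2094 and 2514 in MCK-PPARa muscle. Its change was 1.33 ± 0.31 (SE; limma adjusted p = 0.29, and 0.023 with the block), with 1.26 and 1.41 within replicate numbers 1 and 2. The coenzyme A carrier Slc25a42 did not pass in the same samples (limma adjusted p = 0.99, and 0.85 with the block), and the 2 changes were not tested against each other. In this list Ppcs had 0.52 ± 0.36 (SE) and Rfk -0.38 ± 0.30.

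Some markers of other cells differed between the genotypes beside these values. The 5 adipocyte markers measured, of 7 listed, had a summed signal of 6856 to 6893 in NTG against 16991 to 27788 in MCK-PPARa. Much of that sum was Fabp4, with 4186 and 3820.5 in NTG against 21784 and 10839 in MCK-PPARa. Adipoq and Fabp4 did not pass without the replicate block (limma adjusted p = 0.29 and 0.19) and rose with it (0.023 and 0.0043). Over all genes, 0.0595% passed without the block and 2.33% with it. Retn was higher on both transgenic arrays without passing (0.81). The groups overlapped for Lep (-0.006) and Cidec (0.53), both below the filter. Of 6 brown adipocyte markers listed, 4 were measured, with a summed signal of 1371 to 1520 in NTG against 5249 to 5285 in MCK-PPARa. Cidea, a lipid droplet protein gene, rose, with 3900 and 2874 in MCK-PPARa against 83.3 and 107 in NTG (4.42 ± 0.39, SE; limma adjusted p = 0.017). Dio2, the thyroid hormone deiodinase gene, was higher on both transgenic arrays without passing (0.62 ± 0.42, SE), and the groups overlapped for Elovl3 (0.08 ± 0.43, SE). The defining gene Ucp1 read 81.1 to 102 on the 4 arrays, near the offset. The 7 endothelial markers had a summed signal of 10923 to 12703 in NTG against 15373 to 15735 in MCK-PPARa. For the 7 macrophage markers it was 10718 to 10828 against 11873 to 15343. In each of these 2 lists 6 changes were above 0 and 1 below, and none passed. The sums overlapped between the groups for the fibroblast, smooth muscle and nerve lists. Carriers are expressed in adipocytes too, and the part of any of these cells in the carrier values was not tested.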

How the data were processed

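Total RNA from gastrocnemius of 2 MCK-PPARa and 2 NTG samples was measured on 1 Affymetrix array each. The authors deposited linear signal intensity values per probe set, made with MAS5 per the submitters' processing notes, and neither its version nor its detection calls are stated. The 2% trimmed mean lay between 1500.6 and 1500.7 on every array, so the deposited intensity values were not normalized again. Median signals ran from 582 to 700.3, and the number of arrays limits the precision.

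Single-symbol probe sets (20380 of 22690) were named from the platform annotation. Values were taken as log2(signal + 64.2), the offset being 10% of the median. Probe sets with a mean log2 value under the 40th percentile (a signal of about 423) were left out, and the probe set with the highest mean log2 value stood for its gene, leaving 8400 genes. The 2 groups were compared in limma 3.58.1 (R 4.3.3; lmFit, eBayes, variance trend, two-sided), and p-values were adjusted by Benjamini-Hochberg over the 8400 genes with a threshold of 0.05. The fit was tested on simulated data in which arrays varied independently. Those data held no shared deviation by replicate number, so the test does not cover one.

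Every carrier is named. The signal on each array is given for carriers with an unadjusted p under 0.05, those past the threshold with the replicate block, the 3 highest in NTG and the largest change of each substrate class, and others so shown were added after their values were seen. Of each related list, up to 3 genes by smallest p are named. The hepatocyte list was added after the arrays had been seen to differ in liver transcripts. Carriers, classes and lists were chosen with earlier results of these data known. The labels do not say whether a replicate number marks a shared batch. Arrays of the same number deviated together from their group means (r = 0.46 across the genes tested; genes are not independent of one another). There were 13 alternatives fixed with the design, and 2 were added after seeing the data: each probe set by itself, and brightness by mean linear signal. The mean log2 value was settled on as the measure of brightness after the mean linear signal had been tried, to keep to an earlier processing of these data.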

Additional observations from a re-analysis of the deposited data

How the results depend on the processing

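With all arrays, 0 carriers passed under each of the 9 alternatives that kept them. The same held for both alternatives added after seeing the data, in limma's test. Over all genes, 5 passed, and 2 did under the filter at the 60th percentile, 3 under median centring, 12 with the mean of all probe sets and 196 with the replicate block. Filtering and choosing probe sets by mean linear signal left 8402 genes with 5 calls, and 211 with the block, 0 of them carriers. The block changed no carrier's call. The labels give a shared number only, so the block is not taken as a pairing. Leaving out 1 array gave 68 to 150 calls over all genes and 0 to 1 carrier, the 1 being Slc25a25 without NTG replicate 1. Median centring moved the median change of all genes by -0.10, and quantile normalization by -0.03.

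Of 346 carrier values recomputed, 323 kept their direction and stayed short of the threshold and 22 changed sign. With all arrays the sign changes were small: Slc25a3 at -0.0216 and Slc25a10 at -0.0637 under quantile normalization, and Slc25a3 at -0.0172, Slc25a10 at -0.0998 and Slc25a22 at -0.0084 under median centring. Without 1 array each, the ranges were -0.25 to 0.26 for Slc25a10, -0.17 to 0.36 for Slc25a22, -0.16 to 0.73 for Slc25a23, -1.73 to 1.18 for Slc25a25, -0.32 to 0.30 for Slc25a26, -0.42 to 0.13 for Slc25a29 and -1.39 to 0.14 for Slc25a36. They were -0.21 to 0.49 for Slc25a37, -0.69 to 0.95 for Slc25a42, -0.43 to 0.37 for Slc25a44 and -0.15 to 0.50 for Slc25a51. Without 1 array the groups no longer hold equal numbers of each replicate number, and an arm of 1 array is assumed to vary like the other.

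The median change of the tested carriers, 0.08, was -0.0216 under quantile normalization and -0.0172 under median centring, and -0.0756 to 0.15 without 1 array each. For carriers with no settled substrate the median of 0.26 became 0.16 under median centring and 0.34 with the mean of all probe sets, and 0.0895 to 0.40 without 1 array each. The same fits gave -0.21 to 0.22 for amino acid carriers, -0.16 to 0.73 for phosphate and adenine nucleotide carriers and -0.504 to 0.28 for cofactor and nucleotide carriers. They gave -0.48 to -0.04 for di- and tricarboxylate carriers, -0.26 to 0.0052 for iron carriers and -0.46 to -0.00015 for Slc25a30, the tested uncoupling protein relative. The cause of these shifts was not tested. Without detection calls, values near the offset have no stated background.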
